A study of Homo sapiens with 6 samples.

Results

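DEK, BRD3, TRIM24, NCOA3, ERG and MYC encode proteins known as substrates of SPOP in prostate cancer, and their transcripts were followed after SPOP knockdown. The 6 genes were taken by symbol from 24551 genes with an FPKM value (fragments per kilobase of transcript relative to all mapped fragments). They were chosen with earlier results of these data known. RNA-Seq was carried out on DU145, a prostate carcinoma line, and 769-P, a renal cell adenocarcinoma line. Each line gave 1 library from cells transfected with control siRNA (NC), 1 with SPOP siRNA 1 and 1 with SPOP siRNA 2, so 6 libraries in all. All groups, controls included, were transfected with an siRNA. Although the methods speak of 2 biological replicates, the labels show a single library for each siRNA and control. The siRNA libraries of a line therefore stand as its replicates. Their spread holds any difference between the 2 siRNAs and may otherwise be technical. The controls have no replicate.

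SPOP is the substrate adaptor of a CUL3 and RBX1 ubiquitin ligase. Its MATH domain holds the substrate and its BTB domain holds CUL3, so that the bound protein is ubiquitinated and, for many substrates, degraded by the proteasome. Prostate cancer mutations of SPOP cluster in the MATH domain and weaken substrate binding. This regulation acts on the protein, and the libraries measure only the mRNA. By western blot, the paper reported more DEK and ERG protein after SPOP knockdown in its prostate lines, DU145 among them. It reported no such rise in its renal lines, 769-P among them. In bulk RNA, fewer cells that express a gene and less RNA per cell cannot be told apart.

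Knockdown of SPOP itself was strong in both lines. SPOP (chr17:47676246-47755525, GRCh37) had 16.1 FPKM in the DU145 control, 2.77 with siRNA 1 and 2.96 with siRNA 2. The 769-P values were 11.6, 1.53 and 1.39 FPKM in the same order. Over both lines it fell by 2.25 on the log2(FPKM + 1) scale (standard error 0.17, adjusted p = 0.0197, limma). The level left was 12.0% to 18.4% of the control in the 4 siRNA libraries. On the epithelial side, KRT8 was at 472 to 586 FPKM in DU145 and also high in 769-P, at 251 to 340. CDH1 was at 8.87 to 17.7 FPKM in DU145 and 0 to 0.0977 in 769-P, while KLK3 and HOXB13 were at or near 0 in DU145. The renal regulator PAX8 was at 106 to 125 FPKM in 769-P and at 1.10 to 1.47 in DU145, while CA9, a marker of clear cell carcinoma, was at 0 in 769-P. Of 9 tested renal markers 6 were higher in 769-P and 3 higher in DU145 in limma, where 15.3% and 26.8% of all tested genes were. The 3 were NNMT (47.3 FPKM in the DU145 control, 6.31 in the 769-P control), ANGPTL4 (42.0, 1.61) and NDUFA4L2 (2.27, 0). Depth is not given by FPKM, and relative depths estimated from low values ran from 0.681 to 1.41 of the 769-P control. Of 366 olfactory receptor genes, the control of DU145 had 287 above 0 and the siRNA 2 library of 769-P had 237, where each other library had 3 to 5.

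DEK, a chromatin protein that binds DNA and acts as a histone chaperone, was the member whose values lay below the control in all 4 siRNA libraries. DEK (chr6:18224091-18264779, minus strand, GRCh37) had 77.5 FPKM in the DU145 control, 59.5 with siRNA 1 and 73.7 with siRNA 2. The 769-P values were 86.6 FPKM in the control, 49.5 with siRNA 1 and 50.0 with siRNA 2. Both siRNAs therefore left nearly the same amount in 769-P, 57.2% and 57.7% of the control, whereas in DU145 they left 76.8% and 95.1%. The controls of both lines ranked high, above 92.7% of the tested genes in DU145 and 93.4% in 769-P.

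The log2 fold change of DEK in 769-P was -0.79 (standard error 0.22, adjusted p = 0.693, limma), with an unadjusted p of 0.0150 in the same limma fit. In DU145 it was -0.22 (standard error 0.22, adjusted p = 0.892, limma), and over both lines -0.51 (adjusted p = 0.393, limma). The adjusted p ranged from 0.359 to 0.702 in 769-P over the limma alternatives run with all 6 libraries. The difference between the lines was 0.56 (standard error 0.32, adjusted p = 0.999, limma). An exact two-sided permutation test over the 9 ways to place the control within each line gave p = 0.111, the smallest p this design allows. DEK was the 1 member of 5 tested that passed 1.5-fold with both siRNAs in 769-P, where 3.73% of all 11865 tested genes passed downward and 7.32% in either direction. It was also the 1 member of 5 that was lower in all 4 siRNA libraries, against 13.6% of tested genes. The lower DEK level did not pass limma's adjusted threshold, and the exact test could not have passed 0.05 in this design.

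BRD3, a reader of acetylated histones of the bromodomain and extra-terminal (BET) family, was highest with siRNA 1 in both lines. BRD3 (chr9:136895427-136933657, minus strand, GRCh37) had 8.59 FPKM in the DU145 control, 16.1 with siRNA 1 and 8.35 with siRNA 2. The 769-P values were 6.53 FPKM in the control, 14.0 with siRNA 1 and 8.92 with siRNA 2. The siRNA 1 libraries were the highest in both lines, at 187% and 214% of the control, and the siRNA 2 libraries were at 97.3% and 137%. The mean log2 fold change was 0.40 in DU145 (standard error 0.45, adjusted p = 0.908, limma) and 0.69 in 769-P (standard error 0.45, adjusted p = 0.746, limma). siRNA 2 minus siRNA 1 was -0.87 in DU145 and -0.59 in 769-P, so that BRD3 was at least 1.5-fold higher with siRNA 1 in both lines, as were 1.70% of tested genes. The limma fit with the siRNA number as a term, the replicate block, gave -0.73 for that difference (standard error 0.18, adjusted p = 0.294). The fit was planned, but this contrast of it was added after the values were seen.

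The promoters of DEK and BRD3 are shown because these genes lay on opposite sides of the control in the siRNA 1 libraries. They are the 250 bases before the gene start from RefSeq (GRCh38.p14), printed on the gene's minus strand. Of the 6 genes, promoter windows were kept for DEK, BRD3, NCOA3 and ERG, and not for TRIM24 and MYC. The CCAAT box was searched by those letters on both strands. The E-box was searched as CACGTG, which reads the same on both strands. The GC-box was searched as GGGCGG on both strands. Capitals mark every match, and overlapping matches were each counted.
DEK promoter, chr6:18264531-18264780: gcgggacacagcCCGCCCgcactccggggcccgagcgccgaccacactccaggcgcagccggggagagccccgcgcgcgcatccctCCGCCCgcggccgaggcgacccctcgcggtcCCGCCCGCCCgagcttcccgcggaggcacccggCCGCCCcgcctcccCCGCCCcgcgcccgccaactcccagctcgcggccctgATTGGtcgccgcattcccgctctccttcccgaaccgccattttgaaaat
BRD3 promoter, chr9:134068027-134068276: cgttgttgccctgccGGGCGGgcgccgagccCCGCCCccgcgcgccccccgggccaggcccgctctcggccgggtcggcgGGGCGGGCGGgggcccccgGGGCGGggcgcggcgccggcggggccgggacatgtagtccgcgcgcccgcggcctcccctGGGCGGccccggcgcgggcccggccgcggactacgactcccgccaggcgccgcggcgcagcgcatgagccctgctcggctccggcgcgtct
Both windows are rich in CpG, with 39 CpG in DEK and 48 in BRD3 against a median of 11 over all 35116 promoter windows. The GC content was 77.6% in DEK and 86.8% in BRD3, against a median of 58%. Each held 6 GC-box matches, a motif found in 42.6% of windows. DEK held 1 CCAAT match and BRD3 held 0, where 32% of windows had the motif. E-box matches were 0 in both, and 6.34% of windows had the motif.

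**Figure D1:**
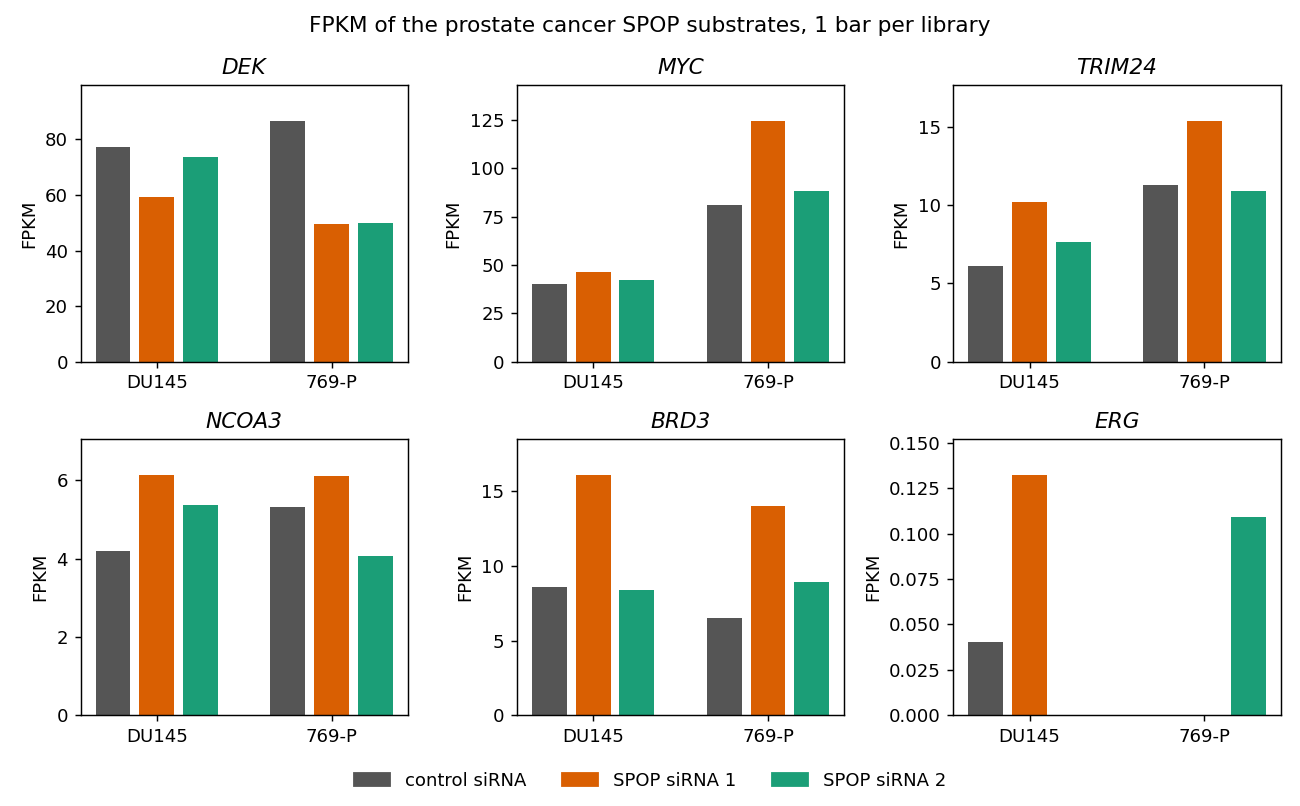
FPKM (linear axis from 0) of each member in the 6 libraries, 1 bar per library and with no error bar because a bar is a single library. DEK is lowest in the 769-P siRNA libraries (49.5 and 50.0), BRD3 is highest in the siRNA 1 library of each line, and all MYC bars of 769-P stand above those of DU145.

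TRIM24, a bromodomain protein and ubiquitin ligase that acts as a transcriptional coactivator, was higher in 769-P than in DU145. TRIM24 (chr7:138145004-138274741, plus strand, GRCh37) had 6.12 FPKM in the DU145 control, 10.2 with siRNA 1 and 7.62 with siRNA 2. The 769-P values were 11.3, 15.4 and 10.9 FPKM in the same order. The lines did not overlap, the highest DU145 library being at 10.2 and the lowest 769-P library at 10.9. With siRNA 1 TRIM24 was at 166% of the control in DU145 and 136% in 769-P, and with siRNA 2 at 124% and 96.6%. The log2 fold change was 0.46 in DU145 (standard error 0.32, adjusted p = 0.848, limma) and 0.19 in 769-P (standard error 0.32, adjusted p = 0.919, limma).

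NCOA3, a p160 coactivator of nuclear receptors, had overlapping values in the lines, and its siRNA values lay on both sides of the control. NCOA3 (chr20:46130631-46285621, plus strand, GRCh37) had 4.19 FPKM in the DU145 control, 6.15 with siRNA 1 and 5.36 with siRNA 2. The 769-P values were 5.33, 6.11 and 4.07 FPKM. Both DU145 siRNA libraries were above their control, at 147% and 128% of its value, whereas in 769-P siRNA 1 was above at 115% and siRNA 2 below at 76.3%. The log2 fold change was 0.38 in DU145 (standard error 0.31, adjusted p = 0.866, limma) and -0.08 in 769-P (standard error 0.31, adjusted p = 0.974, limma).

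MYC, the transcription factor that drives growth and ribosome synthesis genes, was the member that differed most between the lines. MYC (chr8:128747680-128755197, plus strand, GRCh37) had 40.1 FPKM in the DU145 control, 46.2 with siRNA 1 and 42.0 with siRNA 2. The 769-P values were 81.1 FPKM in the control, 124 with siRNA 1 and 88.2 with siRNA 2. The 769-P libraries were all above the DU145 libraries, and within each line every siRNA library was above the control, most in 769-P with siRNA 1 at 153%. MYC was the 1 member of 5 higher in all 4 siRNA libraries, as were 20.1% of tested genes. The log2 fold change was 0.13 in DU145 (standard error 0.27, adjusted p = 0.951, limma) and 0.37 in 769-P (standard error 0.27, adjusted p = 0.763, limma). After quantile normalization the DU145 value was -0.03.

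ERG, an ETS transcription factor known in prostate cancer for its fusion to TMPRSS2, was at or near 0 in all 6 libraries. ERG (chr21:39751949-40033704, minus strand, GRCh37) was listed at 0.0402 FPKM in the DU145 control, 0.132 with siRNA 1 and 0 with siRNA 2. The 769-P libraries listed it at 0, 0 and 0.109. Its mean of 0.0470 FPKM was under the minimum of 1, so it was not tested and no fold is given. The olfactory receptor genes averaged 0.345 FPKM in the control of DU145 and 0.227 with siRNA 2 in 769-P, above the ERG value there, and 0.00554 in the DU145 siRNA 1 library, below it. Of 9 endothelial markers, the cell type in which ERG is normally active, 0 reached a mean of 1 FPKM, and PECAM1 was listed at 0 in all 6 libraries.

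Between the lines, the level was compared by limma over all 6 libraries, with the control and siRNA groups of a line weighted equally. The means and the exact test below instead weigh each library equally. Weighted that way, the log2 differences were 0.22 for DEK, -0.60 for TRIM24, 0.02 for NCOA3, 0.15 for BRD3 and -1.15 for MYC. The paper's methods give the lines different culture media, so line and medium cannot be told apart. Each SD here spans the control and both siRNA libraries of a line, so it is not a spread of replicates. MYC was lower in DU145 by a log2 difference of -1.11 (standard error 0.19, adjusted p = 0.00776, limma), with 42.8 ± 3.13 FPKM in DU145 and 97.9 ± 23.2 in 769-P (SD, n = 3 libraries each). MYC passed in each limma alternative run with all 6 libraries, with adjusted p from 0.00262 to 0.0423. TRIM24 had a difference of -0.64 (standard error 0.22, adjusted p = 0.0680, limma) and did not pass. It passed in 3 of the alternatives, among them quantile normalization (-0.82, adjusted p = 0.0272, limma) and median-centring (-0.81, adjusted p = 0.0252, limma). Of the 5 tested members 1 passed, where 42.1% of all tested genes passed, 26.8% higher in DU145 and 15.3% higher in 769-P. MYC and TRIM24 were the 2 of 5 whose lines did not overlap with 769-P higher, against 21.2% of tested genes, and 35.1% of genes were the other way. An exact permutation test of 3 against 3 libraries gave p = 0.1 for each, the smallest it allows. The limma differences were 0.12 for DEK, 0.20 for BRD3 and -0.06 for NCOA3 (adjusted p = 0.564, 0.644 and 0.845, limma). The median difference of tested genes was 0.14. With each library centred on its own median, the DEK value was -0.04. Between the control libraries alone, 1 in each line and so with no test, DEK was lower in DU145, with a log2 difference of -0.16.

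Per kilobase, the order of the DU145 mean levels was DEK at 70.2 ± 9.48 FPKM, MYC at 42.8 ± 3.13, BRD3 at 11.0 ± 4.40, TRIM24 at 7.97 ± 2.05, NCOA3 at 5.23 ± 0.988 and ERG near 0 (SD over the control and both siRNA libraries, n = 3 libraries). The ranges of BRD3 and TRIM24 overlapped, as did those of TRIM24 and NCOA3, and no other neighbours in this order did. In 769-P MYC came first at 97.9 ± 23.2 FPKM, followed by DEK at 62.0 ± 21.3, TRIM24 at 12.5 ± 2.49, BRD3 at 9.81 ± 3.80 and NCOA3 at 5.17 ± 1.03. The 769-P values of MYC and DEK overlapped, as did those of TRIM24 and BRD3, and no other neighbours did.

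For SPOP knockdown, 0 of the 5 tested members passed an adjusted p of 0.05 in limma in DU145, in 769-P, over both lines or for the difference between lines. The share of all tested genes that passed was 0.135%, 0.101%, 0.236% and 0.169% in the same order. SPOP itself passed over both lines but in neither line alone. At an unadjusted p under 0.05 the members numbered 0, 1, 1 and 0 in the same limma fits, and in both cases the gene was DEK. In DU145 0 of 5 passed 1.5-fold with both siRNAs, against 5.91% of tested genes (4.72% upward, 1.19% downward). In 4 of 5 members, BRD3, TRIM24, NCOA3 and MYC, siRNA 1 was above siRNA 2 in both lines, against 31.6% of tested genes. The median log2 fold change of the 5 members with siRNA 1 was 0.46 in DU145 and 0.42 in 769-P, and with siRNA 2 it was 0.07 and -0.05. Over all tested genes the medians with siRNA 1 were 0.07 and 0.00, and with siRNA 2 they were 0.12 and -0.06. For SPOP itself, siRNA 2 minus siRNA 1 was 0.07 in DU145 and -0.08 in 769-P.

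Counted 1 siRNA at a time, siRNA 1 took TRIM24 and BRD3 past 1.5-fold upward in DU145, where 12.0% of tested genes passed, and BRD3 and MYC in 769-P, where 10.3% did. It took DEK past 1.5-fold downward in 769-P, where 9.84% did. With siRNA 2, DEK in 769-P was the 1 member to pass, downward, where 8.37% of tested genes did.

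**Figure D2:**
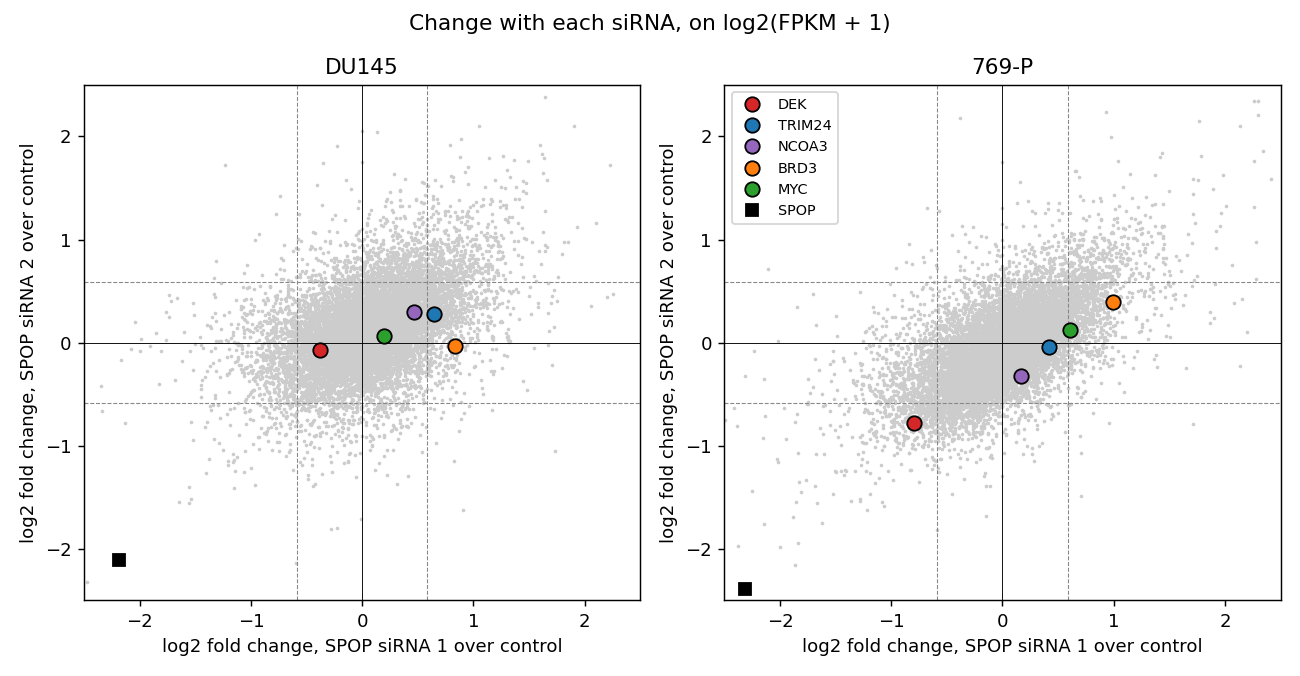
Log2 fold change over the control of the line with SPOP siRNA 1 (x axis) and siRNA 2 (y axis) for tested genes in grey, 5 members in colour and SPOP as a black square, with dashed lines at 1.5-fold and genes beyond 2.5 on either axis not drawn. DEK lies past both lower lines in 769-P (-0.79 and -0.78), while BRD3 lies far along the siRNA 1 axis in both panels (0.83 and 0.99).

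In the families of BRD3, TRIM24 and NCOA3, 0 of the tested genes passed 1.5-fold with both siRNAs in either line, over 2 BET, 4 TIF1 and 3 p160 genes, where 5.91% of all tested genes passed in DU145 and 7.32% in 769-P. BRD2 had 7.37, 10.3 and 6.45 FPKM in DU145 and 3.31 to 4.50 in 769-P. It lies in the major histocompatibility complex and is listed on 7 rows that were summed, so its values are uncertain. BRDT, the testis member, was at 1.73 to 2.36 FPKM in DU145 and listed at 0 in 769-P.

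The TIF1 corepressor TRIM28 was the highest family member, at 190, 188 and 173 FPKM in DU145 and 320, 317 and 285 in 769-P. Like MYC it was lower in DU145, by a log2 level difference of -0.74 (adjusted p = 0.0112, limma). TRIM33, which acts in TGF-beta signalling, had 3.75, 2.40 and 3.67 FPKM in DU145 and 6.83, 3.96 and 5.31 in 769-P, below the control in all 4 siRNA libraries, whereas TRIM24 was above the control in 3 of them. TRIM66 was at 0.648 to 1.12 FPKM in DU145 and 1.55 to 1.67 in 769-P. Among the p160 genes NCOA1 differed between the lines with a log2 level difference of 1.24 (adjusted p = 0.00819, limma), with 2.89 to 4.48 FPKM in DU145 and 0.743 to 0.946 in 769-P. NCOA2 was at 4.24 to 5.28 FPKM in DU145 and 3.19 to 4.32 in 769-P, close to NCOA3.

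**Figure D3:**
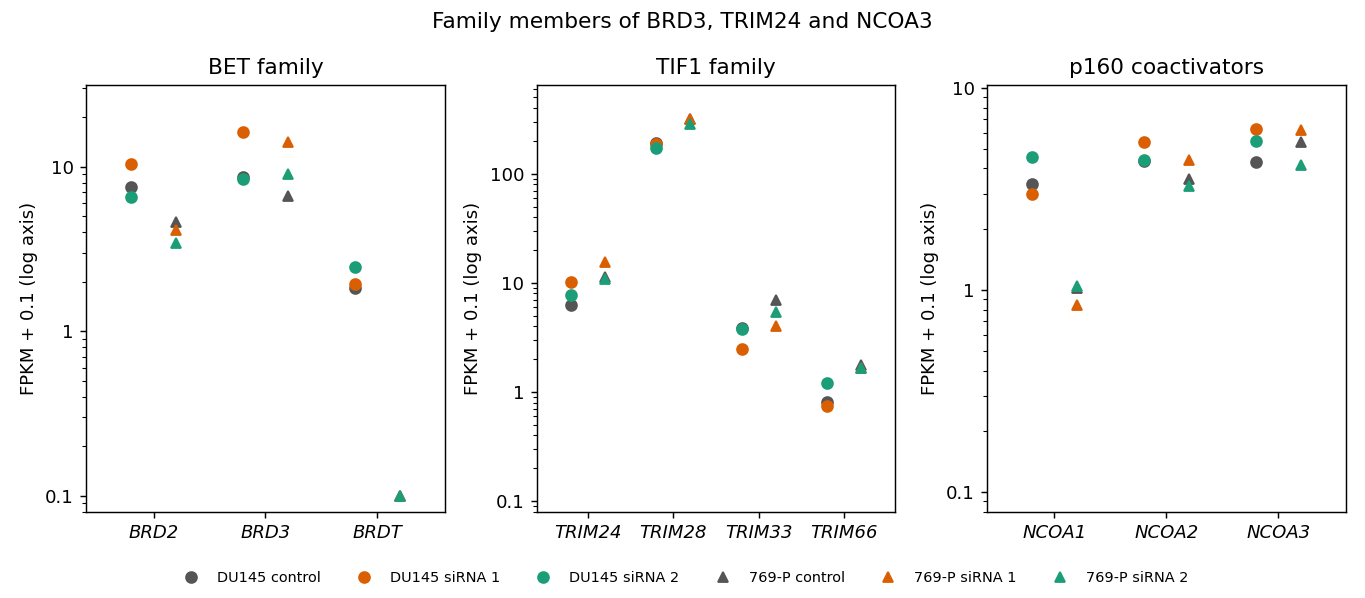
FPKM + 0.1 on a log axis for the BET, TIF1 and p160 families, 1 point per library, circles for DU145 and triangles for 769-P, coloured by siRNA. TRIM28 stands above the other TIF1 genes in both lines, NCOA1 is higher in DU145 than in 769-P, and BRDT is listed at 0 in 769-P.

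Of the wider gene lists, the histone chaperones had 20 tested genes, of which 0 passed 1.5-fold with both siRNAs in DU145 (5.91% of all tested genes did, in either direction) and 2 were lower in 769-P (3.73% of all tested genes), DEK and NPM1. NPM1, a nucleolar histone chaperone, had 432, 159 and 417 FPKM in DU145 and 1116, 330 and 739 in 769-P. It has near-identical processed copies in the genome, so its value is uncertain. The list median was a log2 fold change of 0.02 in DU145 and -0.23 in 769-P, against 0.09 and -0.03 over all tested genes.

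Among 25 MYC target genes of ribosome synthesis and growth, 1 passed upward in DU145, where 4.72% of tested genes did, and 1 upward and 1 downward in 769-P, where 3.60% and 3.73% did. NOLC1, a nucleolar chaperone, was higher with both siRNAs, with 33.9, 54.9 and 79.3 FPKM in DU145 and 35.0, 66.5 and 71.8 in 769-P, and the gene lower in 769-P was NPM1. The list median was -0.02 in DU145 and -0.14 in 769-P on the log2 scale, while MYC itself was above its control in each siRNA library. Of 10 tested genes of the MYC network 0 passed in either line, where 5.91% of all tested genes did in DU145 and 7.32% in 769-P. Averaged over both lines, the largest log2 fold changes there were those of MNT, a MAX partner that represses E-box genes, with 6.87, 15.2 and 8.14 FPKM in DU145 and 7.27, 11.3 and 10.3 in 769-P, followed by MYC.

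Of 16 tested ETS genes 2 passed upward in DU145, where 4.72% of tested genes did, and 0 in 769-P, where 3.60% did. ETS2 had 25.6, 48.1 and 40.0 FPKM in DU145 and ELK1, a ternary complex factor, 13.9, 26.2 and 22.0. In 769-P ETS2 had 21.8, 47.7 and 19.1 and ELK1 16.0, 20.3 and 18.0 FPKM, so that siRNA 1 again gave the highest value. Of 8 tested partners of the p160 coactivators 0 passed in either line, against the same shares as for the MYC network. The largest averages over both lines were those of CARM1 and KAT2B. The methyltransferase CARM1 had 56.8, 90.2 and 65.6 FPKM in DU145 and 50.7, 89.8 and 58.0 in 769-P, and the acetyltransferase KAT2B 2.04, 0.798 and 1.28 and then 1.24, 0.732 and 0.585.

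Among 18 other tested SPOP substrates 0 passed 1.5-fold with both siRNAs in DU145, against 5.91% of tested genes, and 1 was lower in 769-P, against 3.73%. This was SQSTM1, an autophagy receptor, with 854, 495 and 547 FPKM there and 591, 346 and 497 in DU145. It was lower than the control in all 4 siRNA libraries, as were DEK and 13.6% of all tested genes. Among the same 18 substrates, CDC20, H2AFY, GLI3, MYD88 and GEMIN5 were also lower in all 4. The median of these 18 genes was -0.03 in DU145 and -0.23 in 769-P. Of 14 tested genes for other ligases and deubiquitinases 0 passed in DU145, where 5.91% of tested genes did, and in 769-P 1 was higher and 2 were lower, where 3.60% and 3.73% were. SKP2, an F-box protein that targets CDK inhibitors, had 20.9, 12.2 and 11.7 FPKM in 769-P, and AURKA, a mitotic kinase that binds MYC family proteins, 46.6, 26.1 and 28.0. FBXO32, an F-box protein, had 2.68, 13.2 and 7.07 FPKM. Over the 138 tested genes of all lists, limma called 0 in DU145 and 0 in 769-P (5 and 8 at an unadjusted p under 0.05), and over both lines 1 of them, SPOP.

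The tested genes whose pattern over the 6 libraries lay nearest to a member were found by the distance between centred log2(FPKM + 1) values, as a description. For DEK they were CLOCK (0.16), NOC3L (0.17) and GNRH1 (0.18), and CLOCK had 2.74, 1.93 and 2.30 FPKM in DU145 and 3.09, 1.60 and 1.43 in 769-P. TRIM24 was nearest to EEF2K (0.14), RETSAT (0.18) and ALDH18A1 (0.20). NCOA3 had ANXA1 (0.12), HNRNPH3 (0.13) and DDX10 (0.13). The BRD3 pattern had its nearest genes farther away, LDB1 (0.26), ZDHHC24 (0.26) and MVB12B (0.27). For MYC they were ZC3H12A (0.21), PLCG1 (0.23) and NACC2 (0.24).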

How the data were processed

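RNA-Seq of polyadenylated RNA was carried out on the 6 libraries. Paired-end reads of 100 bp were aligned by the authors with TopHat2 (hg19, up to 2 mismatches). The deposited FPKM came from Cufflinks. The submitters' processing notes also name FastQC and cutadapt. Tool versions and the annotation are not given in the sources used here. The paper names the TruSeq kit, whereas the labels name another. Since FPKM keep no read numbers, models for counts were not used, and the depth and precision of single values are unknown.

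Rows with the same symbol were summed, which applied to 440 symbols. Positions come from the GENCODE annotation of GRCh37. Genes averaging 1 FPKM or more were tested by limma 3.58.1 in R 4.3.3 on log2(FPKM + 1), which understates changes of low genes, with 4 groups, a trend on mean expression and Benjamini-Hochberg adjustment over 11865 genes. The residual degrees of freedom were 2. Both steps were tested on simulated data, for limma with changes larger than those of the members. That test does not show how small a change these data could detect. Tables and figures were made with Python 3.11.15, pandas 2.3.3, numpy 2.4.6 and matplotlib 3.10.9. For the families of related genes the members analysed were named, and some genes and 1 list are not reported here. From the other lists the genes past 1.5-fold with both siRNAs of a line were named, or, where there were none, the 2 with the largest mean change over both lines, and for each tested member the 3 nearest genes. The 9 list genes with no row of their own symbol were not analysed here. The members and lists were chosen with earlier results of these data known. Alternatives were quantile normalization, a pseudocount of 0.1, a minimum mean of 5 FPKM or none, subtraction of the olfactory receptor mean, no trend, a replicate block, folds of 1.2 and 2, the control libraries alone for levels, and leaving out libraries. Median-centring for limma, and the contrast between the siRNAs in the replicate block, were added after the values were seen.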

Additional observations from a re-analysis of the deposited data

How the results depend on the processing

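For SPOP knockdown, 0 members passed an adjusted p of 0.05 in limma in each alternative run with all 6 libraries. This held in both lines, over both lines and for their difference. With a pseudocount of 0.1, 0 of all 11865 tested genes passed for that difference, so that run says nothing about the members. Runs with an siRNA library left out keep 1 library in that group, so their counts are not read. For the level between the lines the count of 1 member became 2, MYC and TRIM24, with quantile normalization, with the replicate block and with median-centring, which was chosen after seeing the data. The siRNA numbers are shared by the lines, but only 2 of them, and siRNA 2 minus siRNA 1 correlated between lines with r = 0.27 across 11865 genes, which are not independent. With the block, TRIM24 had a level difference of -0.64 (adjusted p = 0.0171, limma). The cause was not tested. Median-centring moved the level calls of all genes from 3175 higher in DU145 and 1819 higher in 769-P to 2701 and 2602, and quantile normalization to 2603 and 2715. Without the filter, knockdown in DU145 gave 48 genes up and 630 down, against 0 and 16 with it.

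By fold, 0 members in DU145 became 2 at 1.2-fold, and between 0 and 2 with 1 siRNA left out (TRIM24 and BRD3 with siRNA 1 alone). In 769-P 1 member became 0 at 2-fold and 2 at 1.2-fold, and between 1 and 3 with 1 siRNA left out (DEK, BRD3 and MYC with siRNA 1 alone). Among the values of the 5 tested members under the alternatives, 9 changed sign, 153 kept their direction and side of the threshold (or, with no test, moved by less than the spread) and 3 newly passed. With 1 siRNA left out the fold change of BRD3 in DU145 ran from -0.035 to 0.83, of TRIM24 in 769-P from -0.046 to 0.42 and of NCOA3 in 769-P from -0.32 to 0.17. The level difference of NCOA3 ran from -0.18 to 0.062 and of BRD3 from -0.017 to 0.42. MYC in DU145 was -0.029 after quantile normalization, NCOA3 in 769-P 0.0028 after median-centring, and the DEK level -0.043 after median-centring and -0.16 between the controls alone. The 1 control per line and the unknown read counts limit the precision of each value, and leaving out a control gives no level contrast.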
